A study of Mus musculus with 34 samples.

Results

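Stra8, a gene named for its induction by retinoic acid, was examined together with 8 genes that carry, bind, sense or respond to retinoic acid in mouse embryonic stem (ES) cells. The set held every probe set with a single platform symbol among Stra8, Stra6, Cyp26a1, Dhrs3, Rarb, Rara, Rarg, Crabp1 and Crabp2, which are 9 of the 18194 genes named on the arrays. They were represented by 10 of 45265 probe sets, all on the array type MOE430A, with 2 probe sets for Rarg and 1 for each other gene. The genes were chosen by their role and with the signals of the 6 line and state groups already known, Stra8 selected on its late minus early difference, so values of the set are given as description and carry no p-value.

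Retinoic acid, made inside cells from vitamin A, enters the nucleus and binds the receptors RARA, RARB and RARG, which sit on DNA beside RXR partners and switch on genes such as Rarb, Cyp26a1, Dhrs3, Stra6 and Stra8. In germ cells, STRA8 is required for the start of meiosis, and in cultured mouse ES cells Stra8 is a known responder to added retinoic acid. CRABP1 and CRABP2 carry retinoic acid in the cytoplasm, STRA6 takes up vitamin A from its carrier in blood, CYP26A1 breaks retinoic acid down, and DHRS3 returns its precursor to vitamin A.

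Total RNA came from 2 C57BL/6 ES cell lines, D4 and C2, derived from blastocysts, in 3 states each. Late-passage cells of either line, labelled detached (2 RNAs for D4, 3 for C2) or attached (3 RNAs per line), grew in a medium named Thromb-XTX-WES and gave high chimerism with germline transmission. Early-passage cells (3 RNAs per line) grew in DMEM with 15% fetal bovine serum and gave low chimerism with no germline transmission. All groups had LIF, 5% CO2, 37 C and feeders of primary mouse embryonic fibroblasts (MEF), which the labels list as the contaminating cell type at a purity of about 90%. Passage, medium and chimerism changed together, so they cannot be told apart. The labels say neither what detached and attached cells were detached from or attached to, nor whether replicate RNAs are separate cultures, and the spread between replicates may be technical. Each line is a single line, and differences between lines have no replication beyond these RNAs.

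Signals were MAS5 values, a linear intensity per probe set in arbitrary units that cannot be compared between probe sets. The median signal per MOE430A array was 529 to 817. One array stood apart at the dim end, C2 late attached replicate 1, whose 5th percentile was 109 against at most 37.6 on any other array. In D4 late attached replicate 3 the ratio of 3' to 5' Actb signal, a measure of RNA integrity, was 1.84 against at most 1.21. The MOE430A array of that RNA was also the only array whose logged protocol differed from the common one. Pou5f1, a defining ES cell transcription factor, read 10775 to 18750.2 in late RNAs and 8983 to 15730.4 in early RNAs. The test took in the 14160 probe sets that were brighter than the median of the array on 2 or more of the 17 arrays. Of the set, 6 probe sets of 5 genes entered: Rarg (both probe sets, above the median on 17 arrays), Crabp1 (13), Rara (9), Stra8 (7) and Cyp26a1 (6). Crabp2 and Dhrs3 (1 array each), Rarb and Stra6 (0) did not.

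The promoters of 3 genes are shown because Rarb and Cyp26a1 are the members with a receptor repeat in the window searched, and Stra8 is the gene the other values are set beside. The receptors with RXR bind 2 copies of a half-site of 6 letters, here AGGTCA or its variants GGGTCA and AGTTCA and also GGTTCA, in the same direction with 5, 2 or 1 letters between (DR5, DR2, DR1). The 250 bases before the RefSeq start (build GRCm38.p6) were searched on both strands, and matches are in capitals. Stra8 lies at chr6:34920698-34920947 on the plus strand, Rarb at chr14:16575477-16575726 on the minus strand and Cyp26a1 at chr19:37697558-37697807 on the plus strand. Each is printed on its gene's strand, and a DR5 also counts as 2 half-sites.
Stra8: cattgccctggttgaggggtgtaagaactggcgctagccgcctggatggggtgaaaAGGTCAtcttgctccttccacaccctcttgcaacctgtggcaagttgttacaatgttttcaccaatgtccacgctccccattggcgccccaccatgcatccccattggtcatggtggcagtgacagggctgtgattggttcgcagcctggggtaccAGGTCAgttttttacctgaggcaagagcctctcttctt
Rarb: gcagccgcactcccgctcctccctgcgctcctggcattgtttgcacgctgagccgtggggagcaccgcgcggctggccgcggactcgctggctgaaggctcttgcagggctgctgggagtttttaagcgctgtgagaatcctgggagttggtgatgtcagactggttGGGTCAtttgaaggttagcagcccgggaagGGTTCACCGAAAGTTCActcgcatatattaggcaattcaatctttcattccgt
Cyp26a1: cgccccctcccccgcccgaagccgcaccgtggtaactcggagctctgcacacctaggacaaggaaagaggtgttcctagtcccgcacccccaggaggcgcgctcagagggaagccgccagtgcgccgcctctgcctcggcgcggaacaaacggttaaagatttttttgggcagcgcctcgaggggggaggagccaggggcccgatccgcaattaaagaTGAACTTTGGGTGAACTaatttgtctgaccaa

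The Stra8 window held 2 separate copies of AGGTCA, at 194 to 189 and 38 to 33 bases before the start, and no DR5, DR2 or DR1. Rarb held a DR5 at 53 to 37 bases before the start and Cyp26a1 held one at 32 to 16 bases, on the opposite strand. Among all 32851 promoter windows of 27025 genes, 29 (0.0883%) held a DR5, 57 (0.174%) a DR2, 54 (0.164%) a DR1 and 38.6% at least 1 half-site. RefSeq windows were found for 8 of the 9 genes, 17 windows in all, and outside Rarb and Cyp26a1 none held a repeat. A match describes letters only, and a repeat outside the window would not be seen.

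Stra8 signal was lower in every late-passage RNA than in every early-passage RNA. In D4 detached cells it read 219 and 65.3, in D4 attached cells 123, 720.0 and 203, and in D4 early cells 1300.1, 761 and 1033. In C2 detached cells it read 396.9, 287 and 192, in C2 attached cells 342, 471 and 396.6, and in C2 early cells 1308, 1118 and 764. The closest pair was D4 attached replicate 2 at 720.0 and D4 early replicate 2 at 761, so the gap between the states was narrow at that point. The highest signal was 6.08 times the lowest among 5 detached RNAs, 5.88 times among 6 attached RNAs and 1.72 times among 6 early RNAs.

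**Figure D1:**
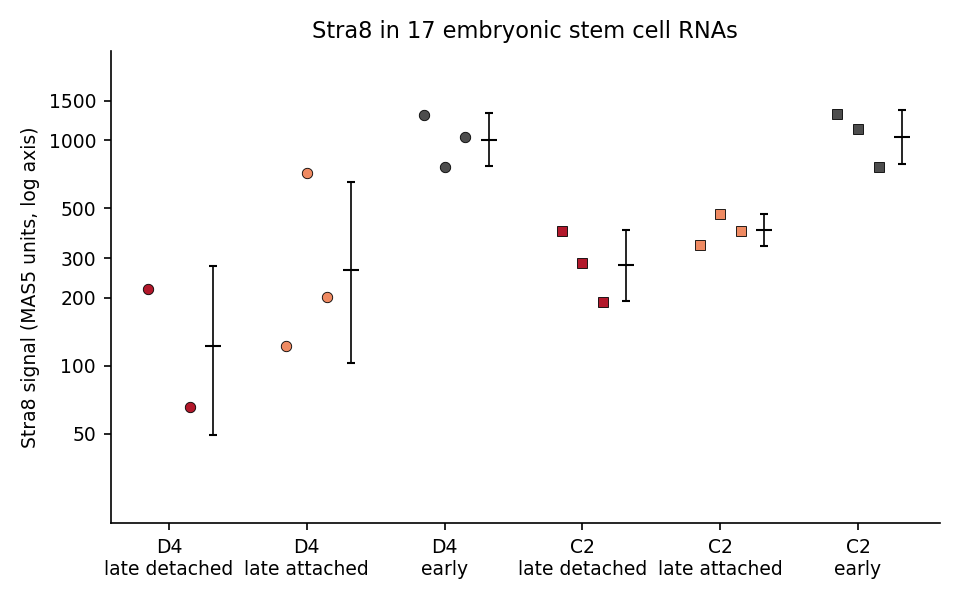
Stra8 signal on a log axis in each of 17 RNAs (points; circles D4, squares C2), with the mean ± SD of log2(signal + 16) beside each group as a bar. Late RNAs lie between 65.3 and 720.0, below the early RNAs at 761 to 1308.

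Averaged over both lines, Stra8 was lower by a log2 difference of -1.98 (SE 0.33, 95% interval -2.68 to -1.28) in late than in early cells, which is 3.95-fold on the scale of log2(signal + 16). The difference was -2.36 (SE 0.39) for detached minus early cells and -1.60 (SE 0.37) for attached minus early cells. In limma's fit Stra8 passed an adjusted p threshold of 0.05 in late minus early, 1 of the 6 probe sets tested, where 3.38% of all probe sets passed in either direction and 2.44% were lower. It also passed in detached minus early, where 4.63% of all probe sets passed and 3.3% were lower, and did not in attached minus early, where 0.177% did. Without D4 attached replicate 2, the brightest late RNA, attached minus early was -1.95 and passed, in a fit where 11 of all 14160 probe sets did. Without the 2 arrays that stood apart, late minus early was -1.91 (SE 0.36). Late and early RNAs did not overlap for 1 of the 6 probe sets, Stra8, against 0.621% of all probe sets. Because Stra8 was picked for this difference, nothing further is read from these counts.

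The order of the 6 groups by mean log2 was C2 early (10.04), D4 early (10.00), C2 attached (8.70), C2 detached (8.21), D4 attached (8.14) and D4 detached (7.11). C2 early and D4 early overlapped. D4 early and C2 attached did not, the lowest early RNA being 761 and the highest C2 attached RNA 471. The remaining neighbours in the order overlapped in their RNAs. Detached minus attached was -0.76 (SE 0.39, 95% interval -1.60 to 0.08), so the order of the late states did not go beyond their error.

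Both lines had lower Stra8 in late cells. The late minus early difference was -2.38 (SE 0.47) in D4, where it passed beside 1.12% of all probe sets, and -1.59 (SE 0.45) in C2, where it did not and 0.0494% passed. The difference between these, D4 minus C2, was -0.79 (SE 0.65, 95% interval -2.19 to 0.61), which leaves sizes from a larger fall in D4 to a smaller one. Averaged over states, D4 minus C2 was -0.57 (SE 0.31, 95% interval -1.24 to 0.10). No probe set of the set passed in D4 minus C2 or in the line difference, where 0% and 0.00706% of all probe sets passed, and 0 of the 6 tested had an unadjusted p under 0.05 in limma's fit of either.

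The MOE430A arrays were washed in 5 fluidics runs over 2 days, and no run held all states. The runs are not labelled and were inferred from the logged station and times. On MOE430A, all C2 arrays and the D4 attached arrays fell on day 1, and all D4 early and D4 detached arrays on day 2. The MOE430B array of C2 early replicate 2 fell on day 2. In early and detached cells, line and day therefore cannot be told apart. In the run that held C2 detached replicates 2 and 3 beside C2 early replicates 1 and 2, Stra8 read 192 to 287 in detached cells and 1118 to 1308 in early cells. In the run with both D4 detached RNAs and D4 early replicates 1 and 2, it read 65.3 to 219 in detached cells and 761 to 1300.1 in early cells. In the run with all D4 attached RNAs and C2 early replicate 3, it read 123 to 720.0 in attached cells and 764 in early cells, a contrast that also crosses lines. With the run as a fixed term, a fit added after the data were seen, detached minus early was -2.58 (SE 0.55), and the late minus early average could not be estimated. C2 attached cells shared no run with early cells, and their difference in that fit, -2.28 (SE 1.19), rests on the groups that link the runs.

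Genes listed as feeder fibroblast markers moved in the same direction, though which cells made these transcripts was not measured. In bulk RNA, fewer cells of a type and less RNA per cell cannot be told apart. Of 22 feeder genes tested, 15 fell in late minus early cells and none rose, with a median of -1.53 beside -0.01 for all probe sets. The largest falls were those of Col1a1, a collagen I chain, at -4.21 (SE 0.41, adjusted p = 0.00021), the actin-binding gene Tagln at -3.65, the smooth muscle actin Acta2 at -2.86 and the matrix gene Tnc at -2.18, while the fibroblast surface antigen Thy1 fell by 1.40 on the log2 scale. The mean log2 signal of the 22 genes was 9.22 to 9.52 in D4 detached, 10.44 to 11.23 in D4 attached and 11.71 to 12.28 in D4 early RNAs. In C2 it was 9.32 to 10.11 in detached, 10.96 to 11.25 in attached and 11.31 to 12.10 in early RNAs. Of the defining fibroblast markers, Col1a1 read at least 47.1 in late RNAs and at least 3643 in early RNAs. Thy1 read at least 708 in late RNAs and at least 3591 in early RNAs. The lowest Col1a1 signal lay near the dim end of the arrays, whose 5th percentile was 22.5 to 109. Pdgfrb and Prrx1, also defining markers, did not enter the test.

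With the feeder mean as a covariate, the Stra8 late minus early difference was -2.20, but its SE was 1.00 and no probe set of the array passed. Feeder level and state cannot be told apart in that fit.

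**Figure D2:**
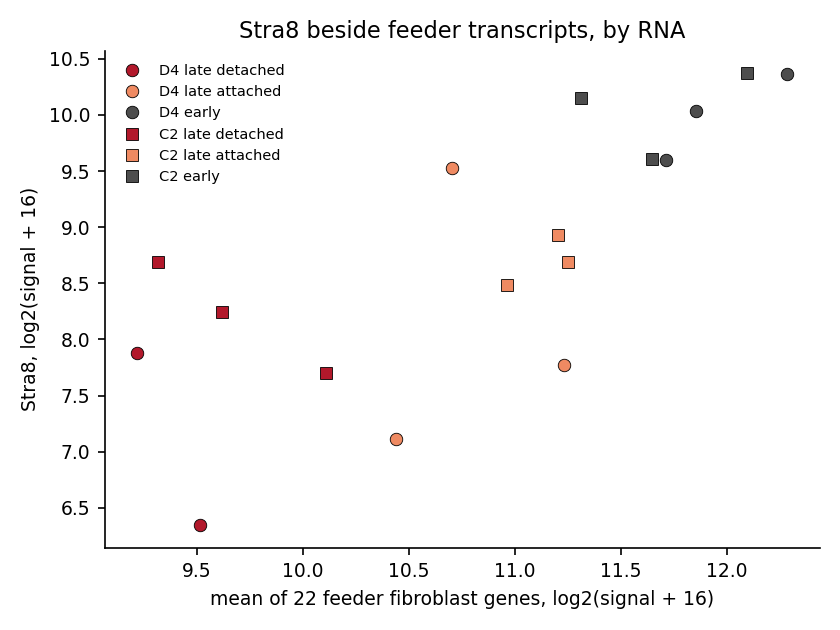
Stra8 log2(signal + 16) against the mean log2(signal + 16) of 22 feeder fibroblast genes, 1 point per RNA (circles D4, squares C2). Late RNAs have feeder means of 9.22 to 11.25 and early RNAs 11.31 to 12.28, so the states do not share a feeder level, and Stra8 is lower in all late RNAs.

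The 5 genes whose signal across the 17 RNAs was most like that of Stra8, by Pearson's r among 8637 genes, were Timp2 (r = 0.85), Cd151 (0.84), Pdlim1 (0.84), Lpar1 (0.83) and Ecm1 (0.82). The RNAs share states, runs and feeder content, so r is a description. Their late minus early differences, given without a test because likeness to Stra8 chose the genes, ran from -0.62 (SE 0.15) for Cd151, a tetraspanin, to -1.71 (SE 0.20) for Timp2, an inhibitor of metalloproteinases. The feeder genes Col5a2 and Acta2 came at places 14 and 15 in that order, with r = 0.79 each.

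Cyp26a1, which is itself switched on by retinoic acid in ES cells, read 608 and 265 in D4 detached, 694, 753 and 134 in D4 attached, and 192, 640.1 and 200.1 in D4 early cells. In C2 it read 362, 108 and 649 in detached, 402, 506 and 603 in attached, and 761, 529 and 679 in early cells. Late and early RNAs overlapped in both lines. The late minus early difference was -0.13 (SE 0.42, 95% interval -1.03 to 0.77).

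Dhrs3, the retinaldehyde reductase, was dim. Its signals were 45.4 and 66.3 in D4 detached, 81.3, 497 and 280.2 in D4 attached, and 725, 92.7 and 255 in D4 early cells. They were 23.5, 61.0 and 95.7 in C2 detached, 198, 134 and 347 in C2 attached, and 85.1, 91.8 and 150.3 in C2 early cells. Detached RNAs were at the low end in both lines, but 1 attached and 3 early RNAs lay within their range. Detached minus attached was -1.74 (SE 0.52, 95% interval -2.86 to -0.63), detached minus early -1.39 (SE 0.52) and attached minus early 0.35 (SE 0.49). Late minus early was -0.52 (SE 0.43), and the gene was below the filter, so none of these was tested.

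Stra6, the vitamin A uptake receptor, read 123 and 38.3 in D4 detached, 48.1, 203 and 57.1 in D4 attached, and 104, 132 and 61.7 in D4 early cells. In C2 it read 233, 195 and 284 in detached, 259, 147 and 68.3 in attached, and 98.8, 140.2 and 111 in early cells. Late and early RNAs overlapped in both lines, except that all 3 C2 detached RNAs exceeded the 3 C2 early RNAs. How many of all probe sets separate those 2 groups was not counted, so nothing is read from it. Late minus early was 0.17 (SE 0.32), and D4 minus C2 over all states was -0.80 (SE 0.31, 95% interval -1.47 to -0.13). That line difference also follows the day in early and detached cells. No array had Stra6 above its median.

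Rarb, the receptor gene that is also a direct target, stayed below the median on every array. Its signals were 181 and 283 in D4 detached, 147, 180.5 and 263 in D4 attached, and 415, 125 and 305 in D4 early cells. They were 264, 163 and 168 in C2 detached, 808, 451 and 294 in C2 attached, and 283, 385 and 497 in C2 early cells. D4 groups overlapped, and in C2 the 3 detached RNAs lay below all attached and early RNAs. The share of all probe sets with such a gap in C2 was not counted, so nothing is read from it. Late minus early was -0.28 (SE 0.27), and C2 detached minus attached was -1.23 (SE 0.44, 95% interval -2.17 to -0.29) against 0.23 (SE 0.49) in D4. The difference between these lines was not tested.

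**Figure D3:**
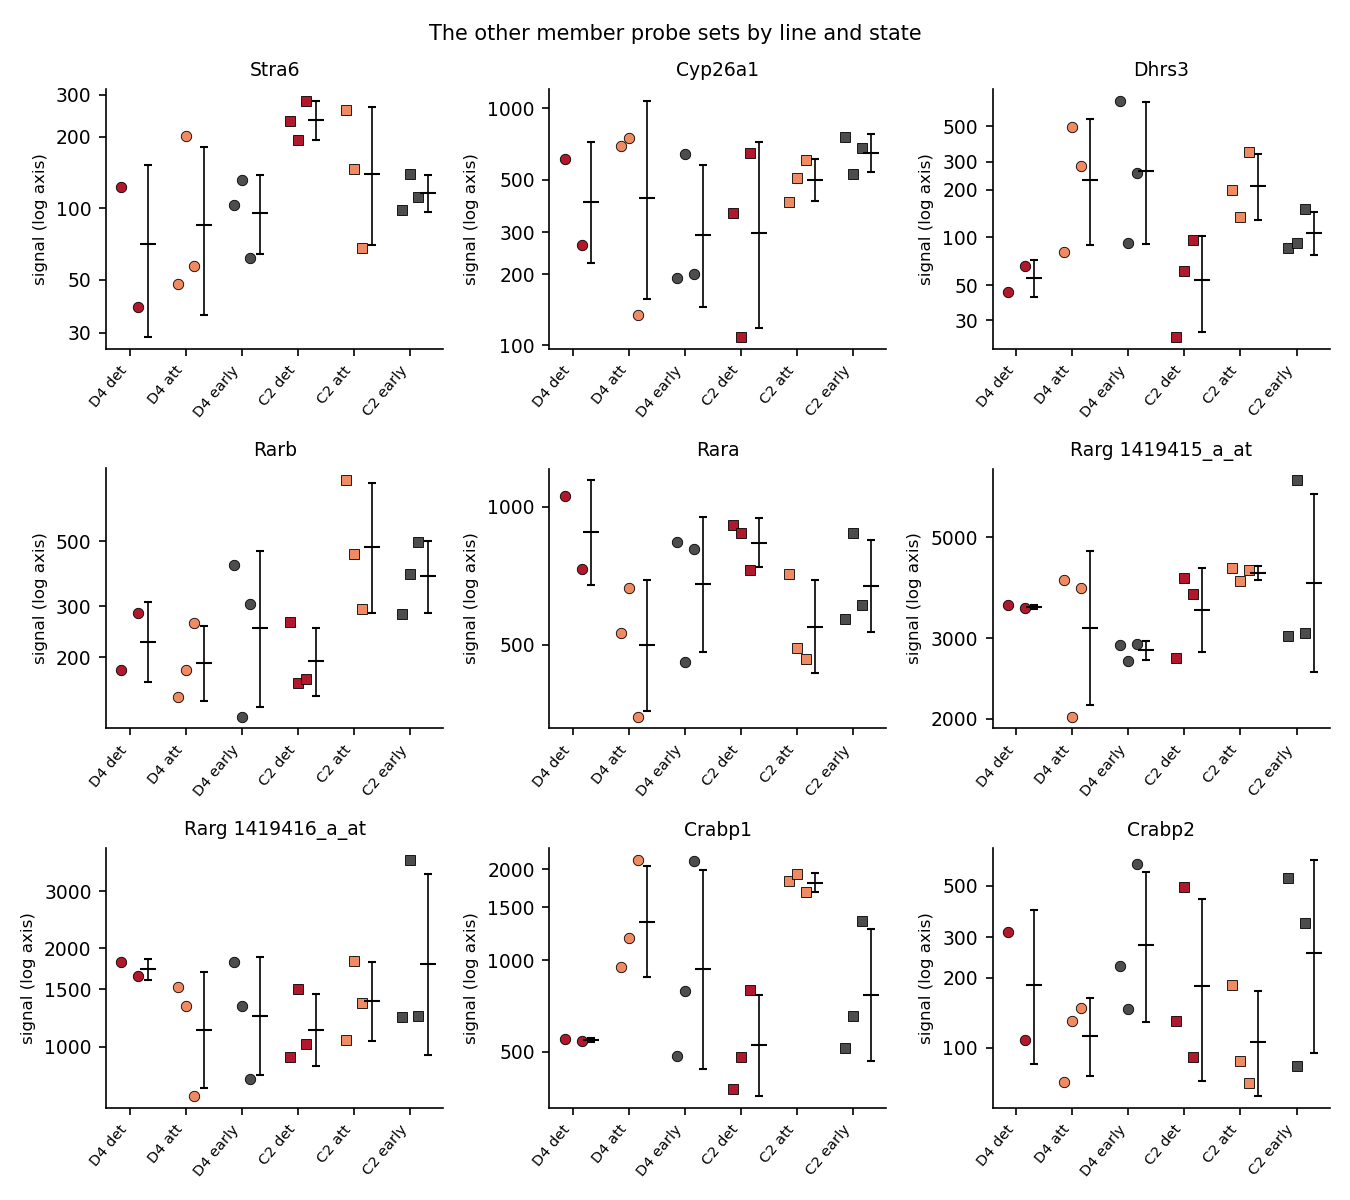
Signals of the other 9 probe sets on log axes by line and state (det, detached; att, attached), with points for RNAs (circles D4, squares C2) and bars for the mean ± SD of log2(signal + 16). Late and early RNAs overlap in every panel, and detached and attached RNAs separate for Rara and Crabp1.

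Of the other receptors, Rarg was above the array median in every RNA. Its first probe set (1419415_a_at) read 3546 and 3500.0 in D4 detached, 4039, 2019.6 and 3880.0 in D4 attached, and 2896, 2674 and 2913 in D4 early cells. In C2 it read 2720.5, 4083 and 3749.7 in detached, 4287, 4018 and 4241 in attached, and 3029.7, 6677 and 3089.6 in early cells. States overlapped, with C2 early replicate 2 the highest of all RNAs. Late minus early was 0.09 (SE 0.19, 95% interval -0.32 to 0.50) for it and -0.18 (SE 0.27, 95% interval -0.75 to 0.40) for the second probe set (1419416_a_at), which ranged over 704 to 1825 in late and 793 to 3739.5 in early RNAs. The signs differed between the probe sets and both intervals included 0.

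Rara read 1059 and 731 in D4 detached, 530.5, 666 and 348 in D4 attached, and 837, 458 and 809 in D4 early cells. In C2 it read 913, 878 and 727 in detached, 714, 492 and 465 in attached, and 569.8, 875 and 610.4 in early cells. Every detached RNA exceeded every attached RNA, at 727 to 1059 against 348 to 714, and early RNAs lay across both ranges. Late minus early was -0.01 (SE 0.18, 95% interval -0.40 to 0.38), with detached minus early at 0.34 (95% interval -0.13 to 0.81) and attached minus early at -0.36 (95% interval -0.81 to 0.08). Detached minus attached was 0.70 (SE 0.22, 95% interval 0.23 to 1.17).

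Crabp1, a cytoplasmic binding protein, read 552 and 542 in D4 detached, 952, 1185 and 2152 in D4 attached, and 484, 791 and 2135 in D4 early cells. In C2 it read 375, 480.0 and 797 in detached, 1833, 1929 and 1679 in attached, and 513, 654 and 1346 in early cells. Detached RNAs, at 375 to 797, lay below all attached RNAs, at 952 to 2152, while early RNAs reached across both. Detached minus attached was -1.52 (SE 0.36, 95% interval -2.29 to -0.74), attached minus early 0.87 (SE 0.34, 95% interval 0.13 to 1.60) and detached minus early -0.65 (SE 0.36). Late minus early averaged these to 0.11 (SE 0.30).

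In detached against attached cells, 2 of the 6 tested probe sets had no overlap of RNAs, Rara higher and Crabp1 lower, where 2.32% of all probe sets had none. At the limma threshold 0 of the 6 passed there, beside 0.466% of all probe sets, and 2 had an unadjusted p under 0.05, as did 2123 of all 14160 probe sets. Crabp1 passed with the replicate block, where 63 of all 14160 probe sets passed, and with array weights, where 418 did. It also passed with the filter at the 75th percentile (75 of 7177 passed) and without D4 early replicate 3 (67 of 14160). Of the 22 feeder genes, 8 fell in detached minus attached cells and none rose, and the part of feeder RNA in the Crabp1 difference was not tested.

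Crabp2, the binding protein that hands retinoic acid to its receptors, read 316 and 108 in D4 detached, 71.1, 129.9 and 149 in D4 attached, and 224, 148 and 622 in D4 early cells. In C2 it read 131, 492 and 91.4 in detached, 187, 87.8 and 70.2 in attached, and 538, 83.4 and 346 in early cells. Attached RNAs were at the low end and all 3 states overlapped. Late minus early was -0.83 (SE 0.46, 95% interval -1.82 to 0.16) and attached minus early -1.17 (SE 0.52), neither of them tested.

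**Figure D4:**
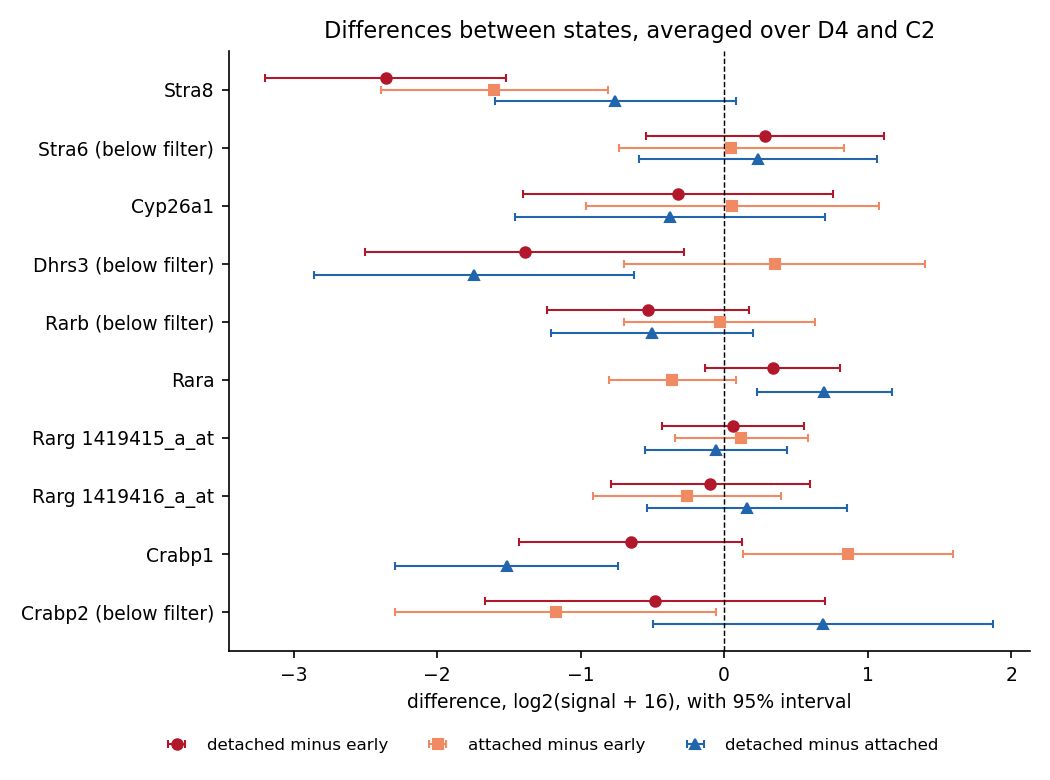
Differences of the 10 probe sets in log2(signal + 16), averaged over D4 and C2, for detached minus early (circles), attached minus early (squares) and detached minus attached cells (triangles), with 95% intervals. Both late states lie below 0 for Stra8, and detached minus attached is below 0 for Crabp1 and Dhrs3 and above 0 for Rara.

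Over all 10 probe sets the late minus early difference was above 0 for 3 and below 0 for 7, with a median of -0.15 beside -0.01 for all probe sets tested. Over the 6 tested probe sets alone the median was -0.07 in late minus early cells. For detached minus early the median was -0.40 over all 10 and -0.21 over the 6 tested, beside -0.03, and for attached minus early 0.01 and -0.10, beside 0.01. Stra8 aside, no late minus early difference of the set exceeded 0.83 in size.

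The rest of the pathway was read from lists of genes that make, sense or answer to retinoic acid. Over all 14160 probe sets tested on MOE430A, 2545 had an unadjusted p under 0.05 in late minus early cells. The count was 3206 in detached minus early cells and 1674 in attached minus early cells. Some list genes were read on MOE430B, fitted and adjusted apart over its 16213 tested probe sets, and no such count is given there. Of 14 tested genes that transport vitamin A or turn it into retinoic acid, none passed in late minus early cells and 2 had an unadjusted p under 0.05 in limma's fit, with a median of -0.17. Rdh10, which makes the retinaldehyde precursor of retinoic acid, read 180 to 787 in late and 422 to 1218 in early RNAs, a difference of -0.62 (SE 0.30, adjusted p = 0.29). Of 22 tested receptor partners, none passed and 3 had an unadjusted p under 0.05, with a median of 0.01. Rxra, a partner of the retinoic acid receptors, differed by 0.0023 (SE 0.16, adjusted p = 0.996) and Rxrb by 0.17 (SE 0.24, adjusted p = 0.76).

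A list named for retinoid breakdown, which left out the member Cyp26a1, held 2 tested genes. Of these, Cyp1b1, a cytochrome P450 that also acts on many other compounds, fell. Its signal was 37.9 to 682 in late and 568 to 1824 in early RNAs, which overlapped, and it fell by 1.81 on the log2 scale (SE 0.31, adjusted p = 0.0066). With the feeder covariate the Cyp1b1 difference was -0.54 (SE 0.88). What the fall means for the making or breakdown of retinoic acid was not tested. Of 20 tested genes that retinoic acid induces in ES or embryonal carcinoma cells, 1 passed, and it rose. Gbx2, a homeobox gene that is also active in undifferentiated ES cells, read 607 to 2714 in late and 186 to 1688 in early RNAs, a difference of 1.85 (SE 0.38, adjusted p = 0.017). The difference was above 0 for 6 of these 20 genes, their median was -0.17, and 8 had an unadjusted p under 0.05. In detached minus early cells, Gbx2 was the 1 gene that rose and Btg2, an antiproliferative gene, the 1 that fell, by 1.13 on the log2 scale (SE 0.27, adjusted p = 0.030).

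Of 21 tested genes of meiosis and germ cells, the process in which STRA8 acts, none passed in late minus early, detached minus early or attached minus early cells, and 1 had an unadjusted p under 0.05 in each. Their late minus early median was 0.02. Several retinoid genes, among them Aldh1a2, Cyp26b1, Rxrg and Hoxb4, and the germ cell genes Sycp3 and Dazl, did not enter the test.

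**Figure D5:**
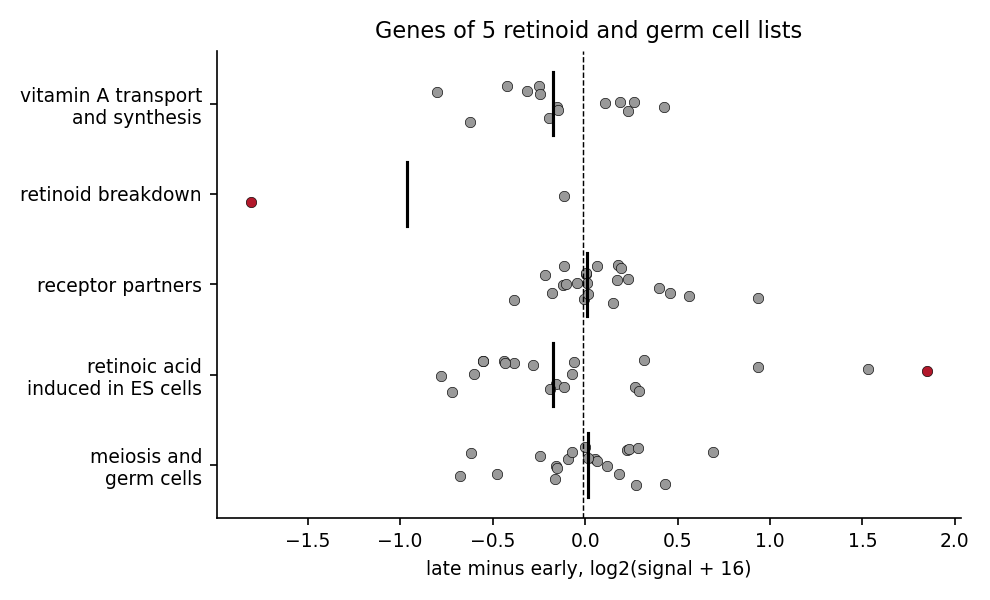
Late minus early difference in log2(signal + 16) of each tested gene in 5 lists (points), with list medians as black bars. The dashed line is the median of all probe sets tested on MOE430A, -0.01. Cyp1b1 at -1.81 and Gbx2 at 1.85 are the 2 genes that passed an adjusted p of 0.05 (red).

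Markers of other cell types moved between the states too. In late minus early cells 4 of 11 extraembryonic endoderm genes rose, with Cubn, an endocytic receptor, at 2.83 (SE 0.31, adjusted p = 0.00054), Dab2 at 1.16, Lama1 at 1.11 and Amn at 0.75. Of 8 trophoblast genes, 2 fell, both keratins of simple epithelia: Krt8 at -2.71 (SE 0.48, adjusted p = 0.0076), with Krt18 at -2.73. Of 12 ES cell genes, 1 rose, Sox2 at 0.71 (SE 0.16, adjusted p = 0.027), while Pou5f1 at 0.29 (SE 0.15) and Nanog at -0.20 (SE 0.20) did not pass, and 0 of 4 neuroectoderm genes passed. Sox2 missed the threshold without C2 early replicate 3 (adjusted p = 0.0828), D4 detached replicate 3 (0.0689) or D4 early replicate 1 (0.0878), and Amn without C2 early replicate 3 (0.0696) or D4 detached replicate 3 (0.0580). Whether any of these cell types had a part in the Stra8 difference was not tested.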

How the data were processed

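The authors deposited 1 signal intensity for each probe set and array. MAS5 is named in the submitters' processing notes, and its version is not given in the sources used here. The 2 array types carried 17 RNAs each. Intensities were used as deposited (trimmed mean 1500 on every MOE430A array) and taken as log2(signal + 16), which understates differences of dim probe sets. Probe sets were named from the platform annotation with symbols updated by gene identifier (20364 of 20393 single symbols matched on MOE430A). Control probe sets were left out.

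A linear model of the 6 groups, which share one estimate of the spread, was fitted to each array type (limma 3.58.1, R 4.3.3). Benjamini-Hochberg adjustment ran over all tested probe sets of an array type. The members, gene lists and comparisons were chosen with earlier results of these data known. Named were all member probe sets, up to 4 genes per list and direction that passed in late minus early, a fixed set (among them Aldh1a2, Rxra, Rxrb, Rxrg, Cyp26b1, Rdh10, Hoxb4, Sycp3, Dazl, Pou5f1, Nanog, Col1a1, Thy1) and the 5 genes most like Stra8. Col5a2, Acta2 and Btg2 were named after their values were seen. For a list gene with several tested probe sets, the one with the highest mean was used, on MOE430A where it had one. Members below the filter were fitted with no filter. Promoters came from the RefSeq table for GRCm38.p6. The fit was tested on simulated data. Alternatives were the pseudocount, filter, normalization, array weights, replicate block, fluidics run, feeder covariate and leaving out RNAs. The number of arrays limits the precision.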

Additional observations from a re-analysis of the deposited data

How the results depend on the processing

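The late minus early difference of Stra8 was -2.20 to -1.77 over 9 alternatives and -2.17 to -1.79 when each of the 17 RNAs was left out. The number of probe sets of the set that passed was 1 in late minus early and in detached minus early cells, and 0 for both with the filter at the 75th percentile, which leaves Stra8 out, and with the feeder covariate, where 0 of all probe sets passed. In detached minus attached cells, 0 passed with the main settings. With the 75th percentile filter 1 did (Crabp1, beside 75 of all 7177 probe sets). With the replicate block 1 did (Crabp1, beside 63 of 14160), and with array weights 2 (Crabp1 and Rara, beside 418 of 14160). Leaving out single RNAs gave 1 in late minus early and detached minus early, and 0 to 1 in attached minus early (Stra8, without D4 attached replicate 2) and detached minus attached cells (Crabp1, without D4 early replicate 3). No member passed in D4 minus C2 or the line difference under any alternative; 867 and 1127 of all probe sets had an unadjusted p under 0.05 there.

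With the replicate number as a block, the Stra8 late minus early difference was -1.95. Replicate numbers showed no clear pairing of the RNAs. Deviations from group means correlated at -0.22 to 0.18 between 40 same-numbered pairs of different groups, 7 of them over 0.1. Between 80 differently numbered pairs they correlated at -0.24 to 0.24, 10 of them over 0.1. The chip lot term was not run for the members, since all lie on MOE430A, which had 1 lot. MOE430B, on which some list genes were read, had 2 lots. Its lot 2 held only early RNAs, D4 early replicates 1 to 3 and C2 early replicate 2. For genes read on MOE430B, late minus early therefore follows the lot in D4 and in part in C2.

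With the feeder covariate, which follows the states, the sign of late minus early turned for Dhrs3 (1.95), Stra6 (-0.57), the first Rarg probe set (-0.15), Rdh10 (1.10), Tnc (0.27) and Thy1 (0.40); Tnc and Thy1 are among the 22 genes of the covariate. The other members were at -1.21 for Cyp26a1, -0.0038 for Rarb, -0.81 for Rara, -1.15 for the second Rarg probe set, 0.57 for Crabp1 and -0.093 for Crabp2, and SEs of these 9 member values were 0.51 to 1.40. Rxra, at 0.0023, turned with array weights (-0.0804), the replicate block (-0.0143) and without single RNAs (-0.0709 to 0.0654), all within its SE. Over all probe sets 478 passed in late minus early cells, against 196 to 603 without single RNAs and 0 to 742 otherwise. In detached minus early cells 656 passed, against 272 to 835 and 0 to 1766. In attached minus early cells 25 passed, against 3 to 56 and 0 to 110. In detached minus attached cells 66 passed, against 22 to 153 and 0 to 418. Sox2 and Amn missed the threshold with no filter (adjusted p = 0.069 and 0.057).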
